A study of Mus musculus with 22 samples.

Results

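The Hox cluster genes of the mouse are the genes whose symbols start with Hoxa, Hoxb, Hoxc or Hoxd followed by a digit. Chosen by symbol, they numbered 43 of the 49997 genes placed on chromosomes by the annotation: 12 in the Hoxa cluster on chromosome 6, 12 in Hoxb on chromosome 11, 9 in Hoxc on chromosome 15 and 10 in Hoxd on chromosome 2. Of these, 39 code for proteins and 4 are long noncoding RNA genes (Hoxa11os, Hoxb3os, Hoxb5os and Hoxd3os1). Within 2500 bp of a Hox gene lay 59 of the 135566 regions tabulated for H3K27ac, the acetylated histone mark of active promoters and enhancers, and 3 of the 68845 regions tabulated for H3K9me3, the mark of heterochromatin.

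The study used chromatin immunoprecipitation with sequencing (ChIP-seq) on cells derived from mouse embryonic fibroblasts (MEFs) of the C57BL/6 strain, all transduced with Sox2, Klf4 and c-Myc (SKM) and fixed in 1.5% formaldehyde. In C2 cells Oct4 was replaced by the zinc-finger artificial factors ZFATF1, ZFATF2 and ZFATF3, in C3 cells by ZFATF1, ZFATF2 and ZFATF4, and OSKM cells received Oct4 itself. The histone marks were measured in induced pluripotent stem (iPS) cells of these lines, treated with 100 nM 4-hydroxytamoxifen for their Oct4-MerCreMer reporter, with 2 libraries per line and mark. The HA tag of the artificial factors was measured in C2 cells and in Empty cells (empty vector with Sox2, Klf4 and c-Myc) at day 20, before reprogramming was complete, again with 2 libraries each. The lines differ in their whole set of factors, and the effect of a single factor cannot be told apart. The labels do not say whether replicates were separate cultures, so p-values measure the spread between these libraries.

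Hox genes encode homeodomain transcription factors that give cells of the embryo their position along the head-to-tail axis and along the limb. They lie side by side in clusters in the order in which they are switched on, from the early, anterior genes with low numbers to the late, posterior genes with high numbers. In pluripotent cells the clusters are known to be held silent by Polycomb complexes while keeping marks that allow later activation, whereas fibroblasts keep the Hox genes of their body position active. H3K27ac and the Polycomb mark H3K27me3 sit on the same lysine and exclude each other on a histone tail.

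The clusters also hold microRNA genes, and Hox messengers are among the known targets of miR-196. Mature sequences are shown because the microRNAs of different clusters share their seeds, given in capitals (bases 2 to 8).
mmu-miR-10a-5p (Hoxb cluster): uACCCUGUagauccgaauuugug
mmu-miR-10b-5p (Hoxd cluster): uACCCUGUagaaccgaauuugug
mmu-miR-196a-5p (Hoxb and Hoxc clusters): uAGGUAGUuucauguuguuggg
mmu-miR-196b-5p (Hoxa cluster): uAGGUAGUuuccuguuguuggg
The miR-10 pair has the seed ACCCUGU and the miR-196 pair has AGGUAGU. Of their 5 gene copies, Mir10a had an H3K27ac region with more than background reads within 2500 bp, the region of the Hoxb4 promoter described next. Mir196a-1 had a region at the floor of 1 read, and Mir10b, Mir196b and Mir196a-2 had none.

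The RefSeq promoter table (build GRCm38.p6) holds 27 windows of 300 bases for 25 of the 43 Hox genes. A few of them are shown over their 250 bases upstream of the annotated start, with CG dinucleotides in capitals. An H3K27ac region overlapped the windows of Hoxb4 (known for expanding blood stem cells), Hoxd10 (a posterior limb and motor neuron gene) and Hoxa11 (a forearm and uterus gene). At Hoxd10 and Hoxa11 it spanned only part of the window. Hoxa13 (the gene of the hand and foot plate) is shown because it had the most CG dinucleotides and no region.
Hoxb4, chr11:96318017-96318266 (+ strand): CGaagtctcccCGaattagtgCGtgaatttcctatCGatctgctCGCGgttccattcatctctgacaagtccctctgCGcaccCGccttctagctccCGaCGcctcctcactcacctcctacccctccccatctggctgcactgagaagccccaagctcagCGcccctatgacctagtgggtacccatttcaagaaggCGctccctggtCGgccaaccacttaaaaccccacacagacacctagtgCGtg
Hoxd10, chr2:74691641-74691890 (+ strand): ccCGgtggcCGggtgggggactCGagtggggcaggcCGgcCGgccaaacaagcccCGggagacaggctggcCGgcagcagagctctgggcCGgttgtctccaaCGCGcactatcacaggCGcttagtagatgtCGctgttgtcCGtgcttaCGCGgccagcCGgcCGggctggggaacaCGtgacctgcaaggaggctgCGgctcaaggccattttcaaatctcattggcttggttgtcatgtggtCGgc
Hoxa11, chr6:52245811-52246060 (- strand): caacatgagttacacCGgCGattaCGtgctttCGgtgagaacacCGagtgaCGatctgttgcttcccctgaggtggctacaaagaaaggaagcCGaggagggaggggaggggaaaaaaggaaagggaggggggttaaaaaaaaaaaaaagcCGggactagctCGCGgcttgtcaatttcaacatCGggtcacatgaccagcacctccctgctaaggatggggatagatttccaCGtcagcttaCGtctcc
Hoxa13, chr6:52260881-52261130 (- strand): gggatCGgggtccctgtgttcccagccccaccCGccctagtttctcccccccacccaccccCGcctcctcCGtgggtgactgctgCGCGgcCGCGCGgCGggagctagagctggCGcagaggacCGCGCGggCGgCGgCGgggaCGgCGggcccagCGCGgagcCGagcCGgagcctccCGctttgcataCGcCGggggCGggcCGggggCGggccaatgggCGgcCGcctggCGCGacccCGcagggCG
H3K27ac regions overlapped 6 of the 27 Hox windows (22.2%), against 49.4% of all 32851 promoter windows in the table. The 6 were Hoxb4, Hoxd10, Hoxa11, Hoxd3, Hoxb3os and Hoxc4. The Hox windows held a median of 15 CG dinucleotides, against 7 in all windows, with 17 in the 6 overlapped windows and 13 in the other 21. Hoxa13, with 45, stood at the top of the Hox range and had no peak in any H3K27ac library. The Hox and PBX motif TGATNNAT, searched on both strands, was present in 4 of the 27 Hox windows (14.8%), those of Hoxa2, Hoxb1, Hoxb8 and Hoxd11, and in 8.85% of all windows. None of the 6 overlapped windows held it.

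The H3K27ac libraries kept 28947967 to 33760862 tags each and the H3K9me3 libraries 29264090 to 46304808. One H3K27ac library stood apart, C2 replicate 2, which was weaker over the whole genome. It had 76915 peaks, against 86571 to 116945 in the others, with a median fold enrichment of 3.62, against 4.20 to 4.86. Its reads in the tabulated regions came to 7033486, against 10857991 to 17649231 in the others. At Hox genes it had 4 peaks, against 40 in C2 replicate 1, 43 and 47 in the C3 libraries and 25 and 37 in the OSKM libraries. Whether its low count at Hox genes goes beyond its genome-wide weakness was not tested. Values of C2 are therefore given per library, and the main tests of C2 against OSKM also without C2 replicate 2; for the gene lists this setting was chosen after seeing the data. Histone C2 and OSKM libraries shared a pair of inputs and C3 had its own, so an input difference cannot be told apart from a difference of C3.

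**Figure D1:**
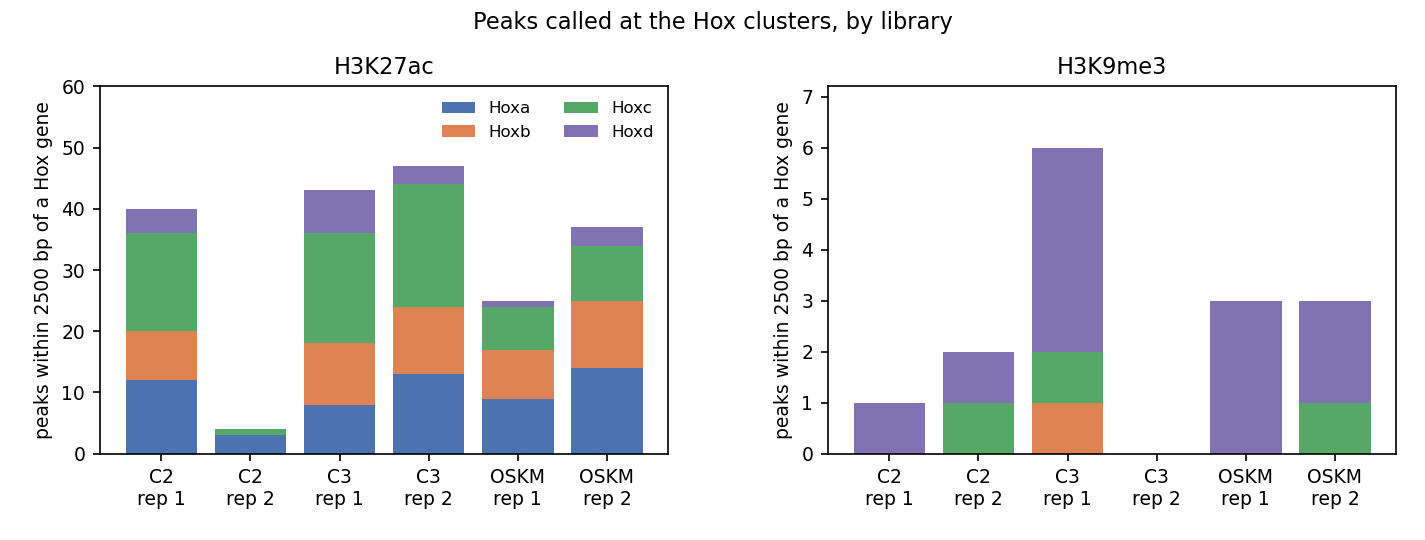
Number of peaks called by the authors within 2500 bp of a Hox gene in each histone library, stacked by cluster, for H3K27ac (left) and H3K9me3 (right). C2 replicate 2 had 4 H3K27ac peaks, whereas the other 5 libraries had 25 to 47, and H3K9me3 peaks numbered 0 to 6.

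H3K27ac was present at the Hox clusters, with median densities near or below those of all regions and no region at the 90th percentile of density. Of the 39 coding Hox genes, 29 (74.4%) had an H3K27ac region within 2500 bp, against 78.3% of 21900 coding genes. Per kb of region, the Hox regions had a median of 31.9 normalized reads in the table of C2 and OSKM, against 29.6 in all regions, and none of the 59 reached the 90th percentile of all regions, which was 98.9. In the table of C3 and OSKM the medians were 33.6 in Hox regions and 35.3 in all regions, and in that of C2 and C3 they were 28.3 and 36.3; no Hox region reached the 90th percentile in either. In the window of 401614 bp around the genes, peaks covered 4.70% in C2 replicate 1 and 0.323% in C2 replicate 2, 6.82% and 7.63% in the C3 libraries, and 3.30% and 5.25% in the OSKM libraries. In such bulk samples a mark on fewer cells or alleles and a lower level on each cannot be told apart.

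The acetylation was uneven along the clusters. In the table of C2 and OSKM, the Hoxa cluster had its densest region between Hoxa7 and Hoxa9 (92.5 normalized reads per kb, mean of 4 libraries). In Hoxb the densest region lay beside Hoxb2, on its Hoxb1 side (78.3), and Hoxb13, the isolated most posterior gene, had 42.8. In Hoxc the densest region, chr15:102921207-102922836, lay at Hoxc13, a gene of hair and nails (63.0), and the region of 8278 bp from Hoxc13 to Hoxc12, the one with the most reads, had 54.7. The Hoxd cluster had 7 regions of 2.94 to 42.9 reads per kb, led by Hoxd10, and 4 of its 9 coding genes (Hoxd1, Hoxd4, Hoxd8 and Hoxd11) had no region. The other Hox genes without a region were Hoxa13, Hoxb1, Hoxb5, Hoxb5os, Hoxb6, Hoxc5 and Hoxc8. Of the 23 Hoxa regions, 6 around Hoxa3, Hoxa4, Hoxa5 and Hoxa6 were at the floor of 1 read in all 4 libraries of that table.

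**Figure D2:**
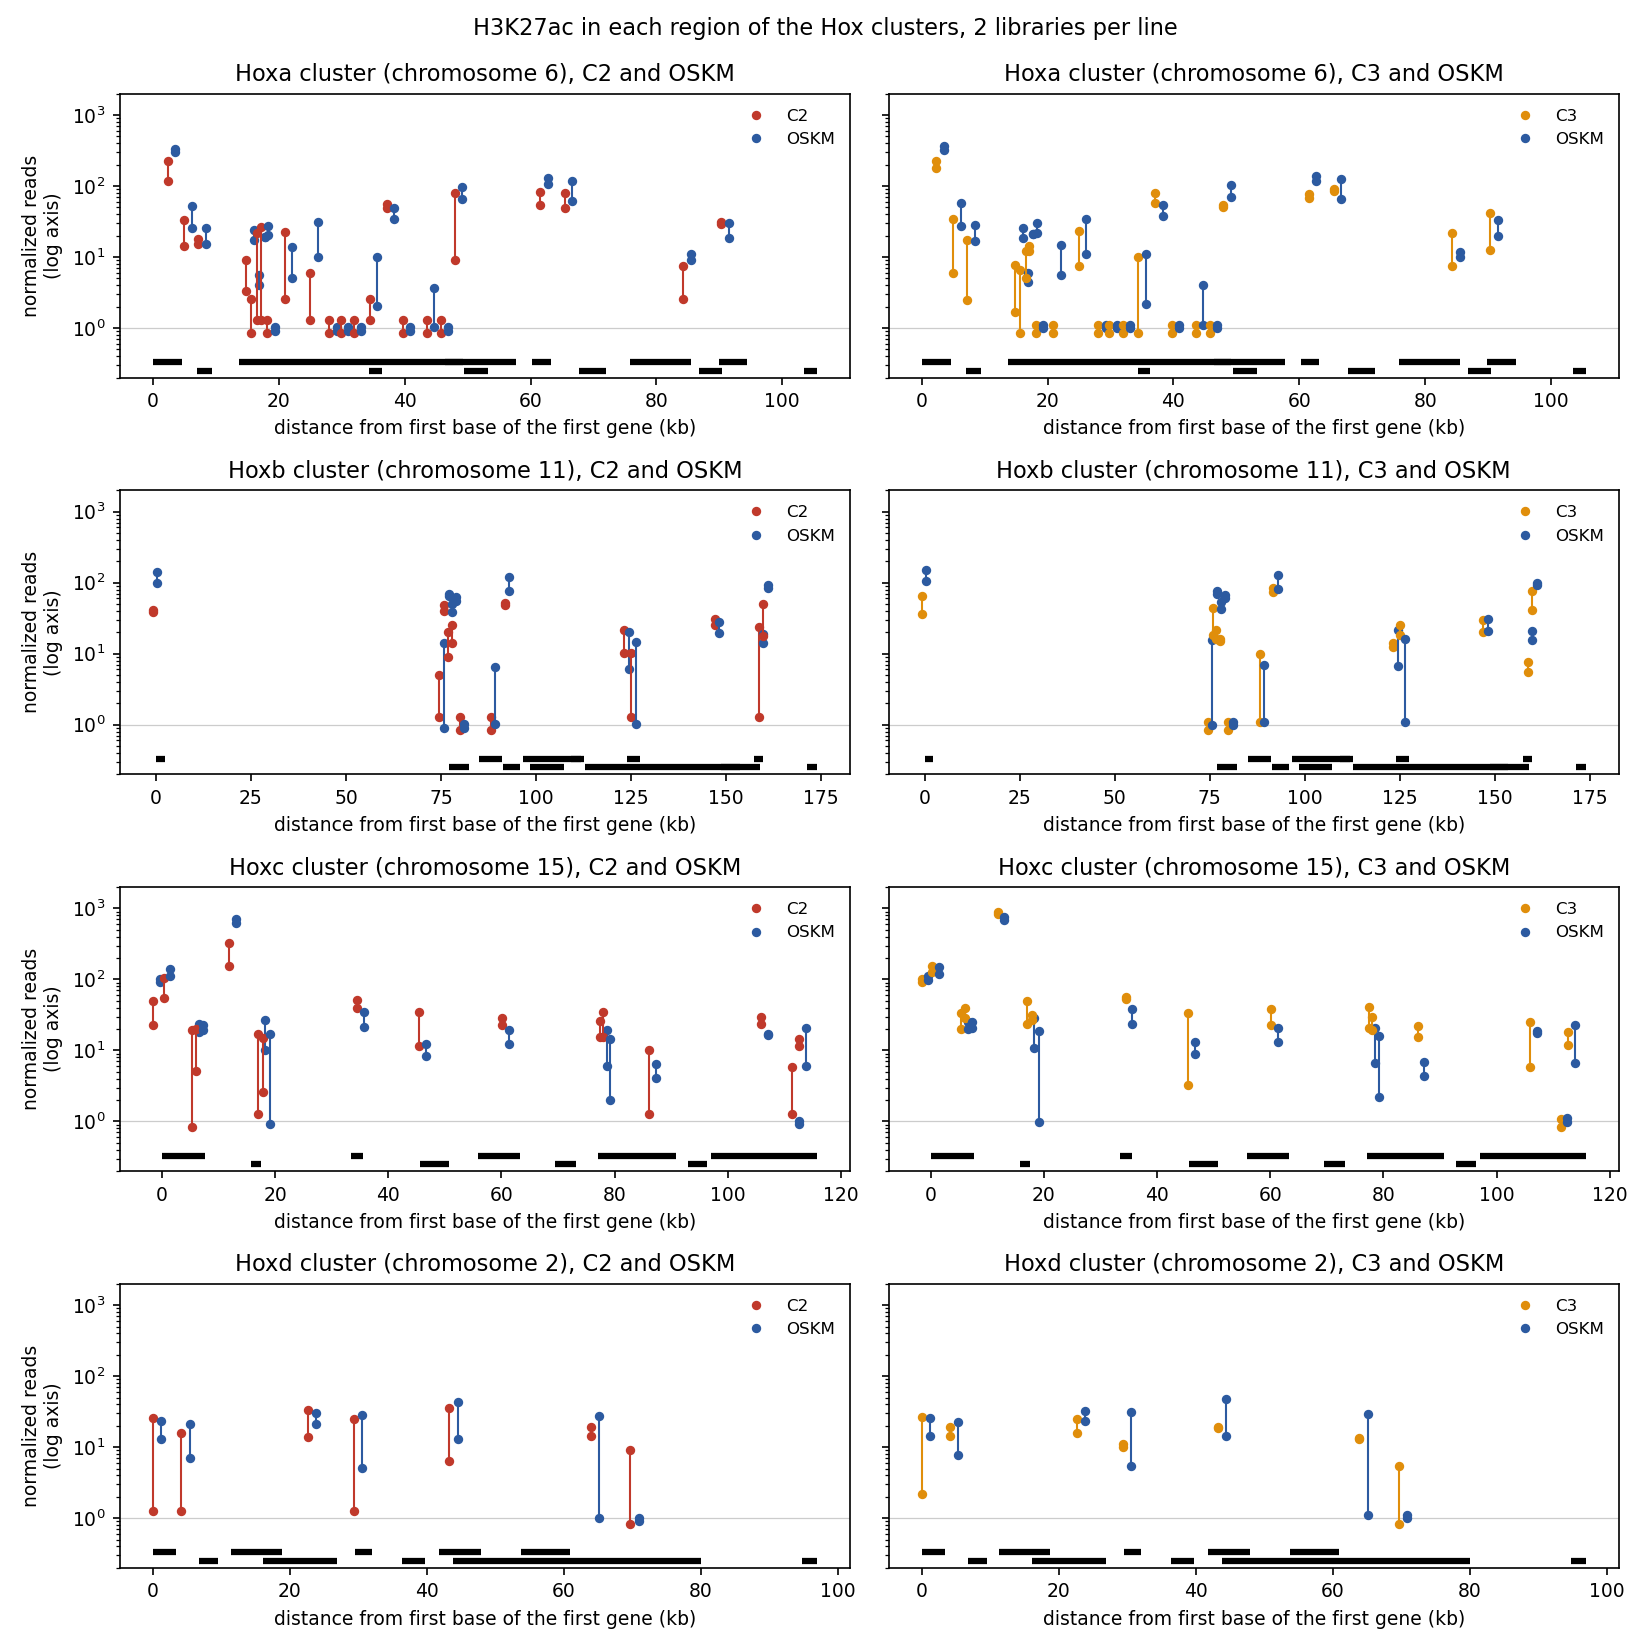
Normalized reads (log axis) of every H3K27ac region of the 4 Hox clusters against its distance in kb from the first base of the first gene, for C2 and OSKM (left) and C3 and OSKM (right); points are libraries, lines join the 2 libraries of a line and are shifted sideways, and black bars are genes. The Hoxc13/Hoxc12 region is the strongest of the clusters, and C2 lies below OSKM there while C3 does not.

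In C2 cells H3K27ac was lower than in OSKM cells at Hoxb13 and over the Hoxc13/Hoxc12 region, at the posterior ends of their clusters, and by limma with all libraries no Hox region was called higher. C2 was compared with OSKM over the 52 Hox regions that were not among the weakest 25% of the table, with limma on the log2 of normalized reads plus 1 and Benjamini-Hochberg adjustment over all 101285 regions tested. At an adjusted p under 0.05, 2 Hox regions were lower in C2 and 0 were higher. Among all regions tested, 10.5% were called and 5.33% were called lower in C2, so the Hox count of 2 in 52 is no larger a share than that of all regions. At an unadjusted p under 0.05, 10 Hox regions were lower and 0 higher, beside 30014 of all 101285 regions in either direction. This is again no larger a share than that of all regions. Fold changes were below 0 in 37 of the 52 Hox regions and above 0 in 15, with a median of -0.71 on the log2 scale, against -0.01 over all regions. Without C2 replicate 2 that median was 0.09, with 24 regions below 0 and 28 above, against a median of -9.37e-05 over all regions. Both C2 libraries lay below both OSKM libraries in 15 of the 52 regions (30.2% of all regions did so). The Hox median was -1.13 without C2 replicate 1, -1.05 without OSKM replicate 1 and -0.30 without OSKM replicate 2. Over all regions it was -0.04, -0.06 and 0.02. The count of called Hox regions, and how its share stood to that of all regions, depended on which library was left out. Such a fit assumes that the lone library varies like the others. With a replicate block, 7 of 52 Hox regions were called lower, beside 8871 of all 101285 regions, which is a larger share. With no filter on weak regions, 5 of 59 were called lower, beside 7622 of all 135566, again a larger share.

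Hoxb13, a gene of the tail end of the embryo and later of the prostate, had 38.7 and 41.1 normalized reads in C2 and 98.5 and 140 in OSKM (chr11:96193186-96195041). The C2 libraries were close to each other and below both OSKM libraries, and the difference was -1.53 (log2, SE 0.32, limma adjusted p = 0.0270). No C2 library had a peak in this region, whereas each OSKM library had 2. Without OSKM replicate 2 the difference was no longer called (limma adjusted p = 0.163), and quantile normalization gave 0.0572; without C2 replicate 2 it was -1.58 with an adjusted p of 0.0365 by limma. Over the alternatives run, the adjusted p lay between 0.00292 and 0.163.

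The Hoxc13/Hoxc12 region (chr15:102929401-102937678) had 327 and 155 normalized reads in C2 and 698 and 633 in OSKM. The groups did not overlap, but the C2 libraries differed from each other by more than the OSKM libraries did, and the difference was -1.56 (log2, SE 0.33, limma adjusted p = 0.0275). Fold enrichment over input at its strongest peak was 4.28 in C2 replicate 1 and 9.15 and 7.89 in OSKM, and C2 replicate 2 had no peak there. Without C2 replicate 2 the difference was -1.02 (limma adjusted p = 0.0147), without C2 replicate 1 it was -2.09 (0.00817), and quantile normalization ended the call (0.0953), within a range of 1.29e-06 to 0.0953 over the alternatives run.

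The leading region of the Hoxd cluster was not called in C2. Hoxd10 had 33.6 and 14.1 normalized reads in C2 and 21.3 and 30.1 in OSKM, where the libraries overlapped (-0.20, SE 0.63, limma adjusted p = 0.849; 0.39, SE 0.58, adjusted p = 0.686 without C2 replicate 2). Among the remaining Hox regions tested, differences ran from -2.26 at a weak region of Hoxa3 to 1.83 at a weak region of Hoxc6, neither past the threshold by limma and both named after their values were seen.

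**Figure D3:**
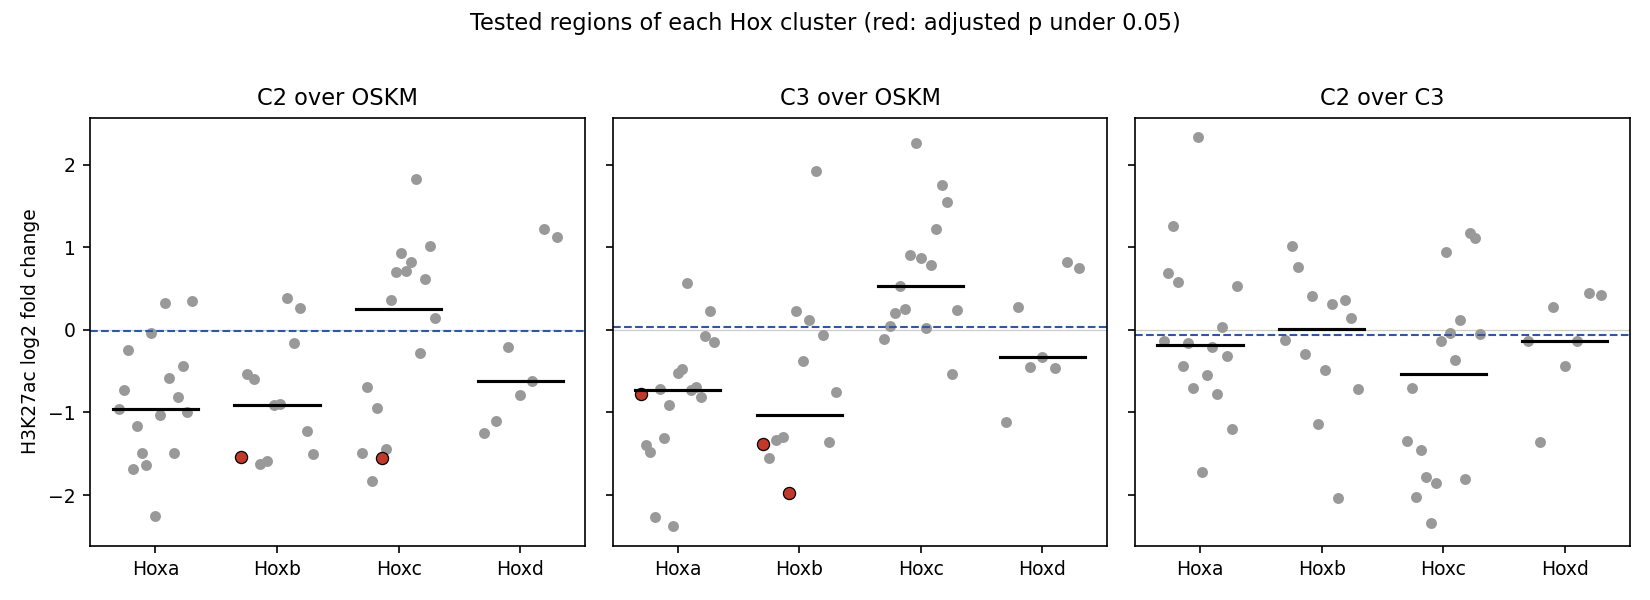
H3K27ac log2 fold change of each tested Hox region by cluster, from left to right along the chromosome within a cluster, for C2 over OSKM, C3 over OSKM and C2 over C3. Black bars are cluster medians, the dashed line is the median of all regions tested in the table, and red points are regions with a limma adjusted p under 0.05: 2 in C2, 3 in C3 and 0 between C2 and C3.

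In C3 cells H3K27ac was lower than in OSKM cells at Hoxb9 and Hoxb13, and by limma with all libraries no Hox region was called higher. The authors' deposited table calls 7 Hox regions, 6 lower and 1 higher in C3. C3 against OSKM gave 3 Hox regions lower and 0 higher among 51 tested, by the same limma test. Among all 101600 regions tested, 22.0% were called and 8.52% were called lower in C3, so the Hox share is below that of all regions. At an unadjusted p under 0.05, 8 Hox regions were lower and 0 higher, beside 37064 of all 101600 regions in either direction. This share too is below that of all regions. Fold changes were below 0 in 30 Hox regions and above 0 in 21, with a median of -0.33, against 0.03 over all regions; without OSKM replicate 2 the Hox median was 0.04. Both C3 libraries lay below both OSKM libraries in 14 of the 51 regions (30.4% of all regions did so).

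Hoxb9, a gene of the ribs and thorax, carried the largest of the called differences in this table at chr11:96272032-96273423, with 15.9 and 15.3 normalized reads in C3 and 60.7 and 67.5 in OSKM. The libraries of a line were nearly equal and the lines did not overlap (-1.97, SE 0.46, limma adjusted p = 0.0215). In C2 the same region had 25.2 and 14.1 normalized reads, against 55.9 and 62.1 in OSKM, and was not called (-1.59, SE 0.48, limma adjusted p = 0.0718; -1.19, SE 0.39, adjusted p = 0.111 without C2 replicate 2), whereas the authors' deposited table gives it an FDR of 0.0272. The C3 call was lost without OSKM replicate 1 (limma adjusted p = 0.101) or replicate 2 (0.121), and the alternatives ran from 0.000322, the authors' FDR in their deposited table, to 0.121. This is not the Hoxb9 region with the most reads, and it was singled out after its values were seen. The one with the most reads, chr11:96270084-96271352, had 18.4 and 43.6 in C3 and 69.5 and 76.5 in OSKM and was not called (-1.33, SE 0.48, limma adjusted p = 0.0871).

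Hoxb13 had 65.2 and 36.0 normalized reads in C3 and 107 and 152 in OSKM. Both C3 libraries were below both OSKM libraries, by -1.38 (SE 0.38, limma adjusted p = 0.0361). Peaks were called there in C3 replicate 1 but not in C3 replicate 2. The call was lost without C3 replicate 2 (limma adjusted p = 0.0996), without OSKM replicate 2 (0.127) and with quantile normalization (0.0564), and over the alternatives run the adjusted p lay between 0.00426 and 0.127. The comparisons of C2 and of C3 share the OSKM libraries, so their differences at Hoxb13 and Hoxb9 are not independent of each other.

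At the Hoxc13/Hoxc12 region C3 did not lie below OSKM: it had 838 and 891 normalized reads in C3 and 758 and 688 in OSKM (0.26, SE 0.22, limma adjusted p = 0.431). The borders of that region were set by peaks of C3 replicate 1, which favours higher values in C3. Hoxd10 had 15.9 and 25.1 in C3 and 23.2 and 32.8 in OSKM, where the libraries overlapped (-0.45, SE 0.58, limma adjusted p = 0.607). The remaining tested regions ran from -2.38 at a weak region of Hoxa3 to 2.26 at a weak region of Hoxc12.

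Between C2 and C3, 3 of 51 Hox regions had an unadjusted p under 0.05, all lower in C2. Beside them stood 12440 of all 101581 regions, in either direction. By limma adjusted p, C2 set directly against C3 gave 0 called Hox regions, where 0.0581% of all regions were called. The count was 1 with edgeR on the recovered reads and 1 with TMM scaling, in both cases the Hoxc13/Hoxc12 region. It also depended on which library was left out. The Hoxc13/Hoxc12 region had 348 and 164 normalized reads in C2 and 796 and 850 in C3. Its borders were set by peaks of C3 replicate 1, which favours higher values in C3. Each C2 library lay below each C3 library, with a difference of -1.78 (SE 0.36, limma adjusted p = 0.0977, edgeR adjusted p = 0.0482). Without C2 replicate 2 the difference was -1.24 (limma adjusted p = 0.447), and without C2 replicate 1 it was -2.32 (0.000211). Fold changes over all 51 regions were below 0 in 32 and above 0 in 19, with a median of -0.14, against -0.06 over all regions, and the Hox median was 0.12 without C2 replicate 2. Both C2 libraries lay below both C3 libraries in 10 of the 51 regions (22.2% of all regions did so).

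**Figure D4:**
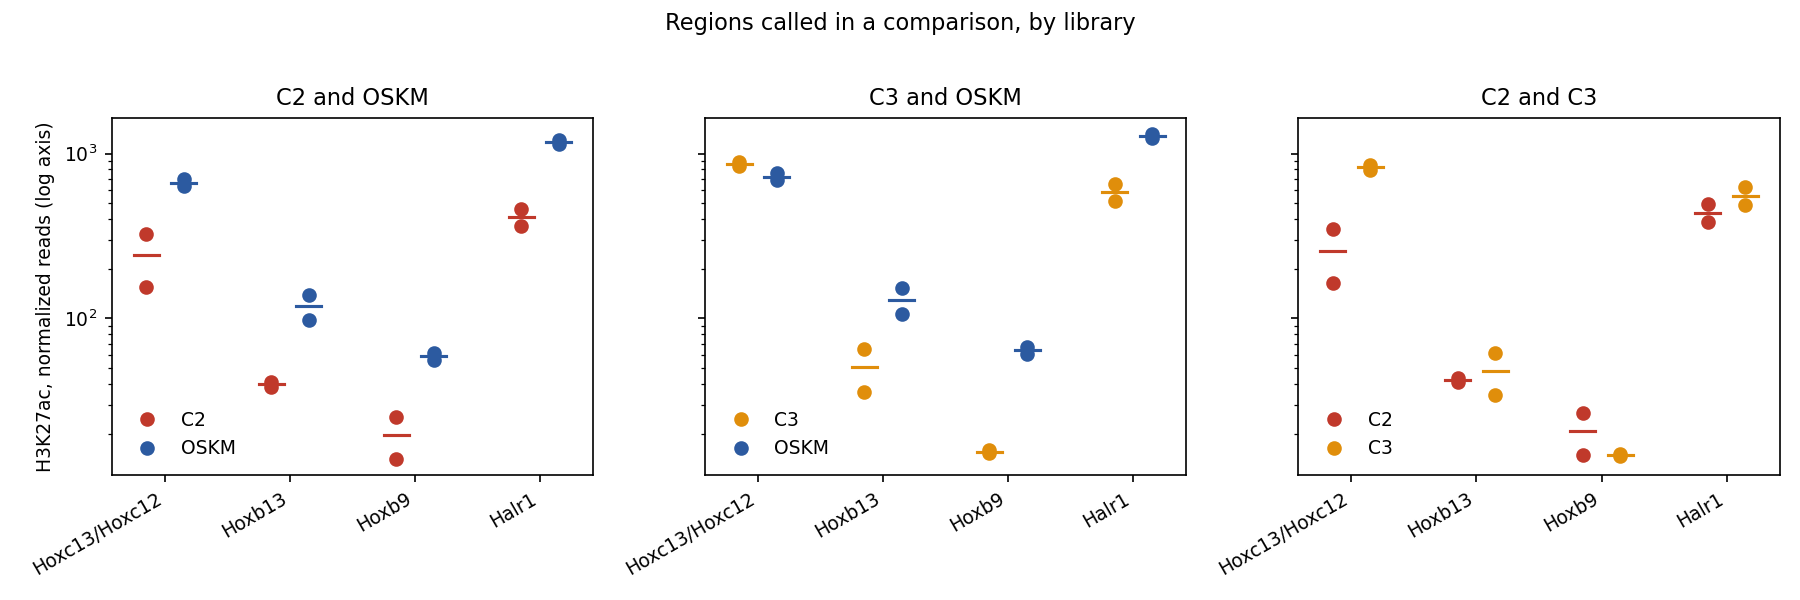
H3K27ac normalized reads (log axis) of 3 Hox regions called in a comparison and of Halr1 beside the Hoxa cluster, for C2 and OSKM, C3 and OSKM, and C2 and C3; points are libraries and bars are means of 2. Hoxb13, Hoxb9 and Halr1 lie below OSKM in both C2 and C3, whereas Hoxc13/Hoxc12 lies below in C2 and not in C3.

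The Hoxc cluster was divided along its length, a pattern chosen for description after its values were seen and therefore not tested. Over the 7 regions of Hoxc13 and Hoxc12, normalized reads summed to 535 and 262 in C2 and 998 and 915 in OSKM, and 6 of the 7 fold changes were below 0. Over the 9 regions from Hoxc11 to Hoxc4 (genes of the trunk and hindlimb level), they summed to 218 and 160 in C2 and 82.3 and 141 in OSKM, and 8 of 9 fold changes were above 0. The C2 sums were thus lower at the posterior end and higher over the rest of the cluster. From Hoxc11 to Hoxc4, OSKM replicate 1 had no peak, and only the Hoxc11 and Hoxc9 regions overlapped a peak of OSKM replicate 2. Other regions there, such as those of Hoxc10 and Hoxc6, had borders set by peaks of C2 and C3 libraries. This choice of regions favours higher values in C2 and C3 than in OSKM over that stretch. In C3 both stretches were above OSKM: 1193 and 1266 in C3 and 1084 and 995 in OSKM at Hoxc13 and Hoxc12, and 200 and 218 in C3 and 89.4 and 153 in OSKM from Hoxc11 to Hoxc4. With all libraries limma called no single region from Hoxc11 to Hoxc4 in either comparison. The authors' deposited table calls a region of Hoxc6, chr15:103007478-103008036, higher in C3 (log2 1.70, FDR 0.0391). With one library left out, limma called a region of Hoxc4 higher in C2 without C2 replicate 2 (1.81, limma adjusted p = 0.0277) and another of Hoxc6 higher in C3 without OSKM replicate 2 (2.95, limma adjusted p = 0.0470), all named after their values were seen.

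Over whole clusters, Hoxb regions summed to 319 and 222 normalized reads in C2 and 473 and 622 in OSKM, and to 343 and 313 in C3 and 514 and 677 in OSKM, with no overlap in either comparison. Hoxa regions summed to 692 and 375 in C2 and 781 and 920 in OSKM, and to 565 and 654 in C3 and 849 and 1001 in OSKM, again without overlap. Hoxd regions summed to 151 and 52.6 in C2 and 62.0 and 175 in OSKM, where the libraries overlapped. For the stronger regions of the whole chromosome, with a mean of at least 50 normalized reads, the median difference of C2 and OSKM was -0.18 on chromosome 2, -0.25 on 6, -0.28 on 11 and -0.28 on 15, and -0.25 over the autosomes other than chromosome 8.

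The noncoding RNA genes of the clusters were counted as a list of 13, of which 8 had an H3K27ac region and 7 a tested one. In C2, 1 of the 7 fell and 0 rose, where 5.33% of all regions were called lower, and in C3, 2 fell and 0 rose, where 8.52% were. Halr1, a long noncoding RNA gene beside the Hoxa cluster, fell in both at chr6:52102294-52107342. It had 461 and 366 normalized reads in C2 and 1137 and 1211 in OSKM (-1.51, SE 0.21, limma adjusted p = 0.0122; -1.34, SE 0.11, adjusted p = 0.0147 without C2 replicate 2). It had 657 and 513 in C3 and 1235 and 1318 in OSKM (-1.14, SE 0.24, limma adjusted p = 0.0142), a call lost without OSKM replicate 1 (0.135) or replicate 2 (0.155). Neither set of libraries overlapped, and C2 and C3 themselves differed by -0.34 (SE 0.32, limma adjusted p = 0.709). Hotair, transcribed between Hoxc12 and Hoxc11, had 20.2 and 21.8 in C2 and 23.4 and 41.1 in OSKM and was not called (-0.54, SE 0.55, limma adjusted p = 0.545).

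Genes that act with or upon Hox genes were counted as lists, each gene by its strongest H3K27ac region within 2500 bp. Of the 9 Hox cofactor genes of the PBX, MEIS and PREP families, 1 rose and 2 fell in both comparisons, beside 10.5% of all regions called in C2 and 22.0% in C3. Those called were Pknox2, Meis2 and Pknox1, with C2 differences of 1.39, -1.06 and -0.85 without C2 replicate 2. Pknox2 was higher (1.17 in C2, limma adjusted p = 0.0219; 0.88 in C3, 0.0347), Meis2 lower (-1.01 in C2, 0.0230; -0.90 in C3, 0.0238) and Pknox1 lower (-0.87 in C2, 0.0306; -1.37 in C3, 0.00804). Of 17 tested upstream regulators, 4 fell and 0 rose in C2, beside 5.33% of all regions called lower. They were the retinoid receptor genes Rarg (-1.03) and Rxra (-0.88), the retinoic acid-degrading enzyme gene Cyp26b1 (-0.89) and the signal gene Wnt3a (-0.95). Without C2 replicate 2 their differences were -0.77, -0.82, -0.86 and -0.66. In C3, Rxra (-0.81) and Wnt3a (-1.25) fell and Cyp26a1, another retinoic acid-degrading enzyme gene, rose (1.15). Among 12 homeobox genes that neighbour or resemble the Hox genes, such as Evx1 and Pdx1, 11 were tested. Evx2 was left out of the fit of C2 against OSKM. By limma 0 of the 11 were called in C2 and 0 in C3, with 4 and 0 at an unadjusted p under 0.05.

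Of the 29 genes of Polycomb complexes, 3 fell in C2 on the log2 scale (Jarid2 -1.12, Cbx7 -0.89 and Phc2 -0.82) and 0 rose, beside 10.5% of all regions called, and in C3 Kdm2b alone was called and rose (log2 1.01), beside 22.0% of all regions called. Of 12 genes of Trithorax-type activators, H3K27 demethylases and the insulator protein Ctcf, 2 fell in C2 (Ctcf -1.49 and Ash2l -1.39) and 1 in C3 (Ctcf -1.28), beside 5.33% and 8.52% of all regions called lower. Without C2 replicate 2 the C2 differences were -0.67 at Jarid2, -0.79 at Cbx7, -0.83 at Phc2, -1.41 at Ctcf and -1.08 at Ash2l. Ctcf and Ash2l lie on chromosome 8, where stronger regions had a median difference of -1.37 in C2 and -1.08 in C3. For H3K27ac, no gene of any of these lists was called between C2 and C3 by limma, where 3 list genes had an unadjusted p under 0.05. List medians in C2 against OSKM ran from -0.95 to -0.29, against -0.01 over all regions. That value is not a like measure, because list genes were taken at their strongest region. Stronger regions of the autosomes other than chromosome 8 had a median difference of -0.25.

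Markers of other cell types were counted beside the Hox genes. All 8 pluripotency markers carried strong regions, with means of 1964 to 5241 normalized reads in the table of C2 and OSKM, and 6 of them were lower in C2 and 0 in C3, beside 5.33% and 8.52% of all regions called lower. Of 8 fibroblast markers 6 had a region, with means of 11.2 to 136 and sums of 276 and 266 in C2 and 177 and 286 in OSKM, and 322 and 322 in C3 and 215 and 292 in OSKM; 0 were called by limma (0 at an unadjusted p under 0.05). Endoderm markers summed to 2044 and 993 in C2 and 280 and 587 in OSKM, with 3 of 5 called higher, and to 3879 and 2160 in C3 and 313 and 639 in OSKM, with 4 of 5 higher, beside 5.20% and 13.5% of all regions called higher. Mesoderm markers summed to 572 and 593 in C2 and 847 and 907 in OSKM, with 0 of 4 called by limma (2 at an unadjusted p under 0.05), and to 601 and 755 in C3 and 921 and 987 in OSKM, with 2 of 4 lower in C3. Neuroectoderm markers summed to 334 and 172 in C2 and 345 and 453 in OSKM, and to 368 and 336 in C3 and 381 and 463 in OSKM. Of the 4, 3 were tested and 0 called by limma in either comparison, with 2 in C2 and 0 in C3 at an unadjusted p under 0.05. Without C2 replicate 2 all 8 pluripotency markers and 1 mesoderm marker were called lower in C2, 2 endoderm markers higher, and 0 fibroblast and 0 neuroectoderm markers either way, beside 8.22% of all regions called lower and 8.85% called higher. The part of these cell types in the Hox values was not tested.

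H3K9me3 was rare at the Hox genes. Of 39 coding Hox genes, 4 (10.3%) had an H3K9me3 region within 2500 bp, against 28.3% of all coding genes. The 3 regions lay between Hoxd13 and Hoxd12 (chr2:74673318-74673770), at Hoxd3 (chr2:74735782-74736961) and at Hoxc9 (chr15:102985856-102986317). Peaks at Hox genes numbered 1 and 2 in the C2 libraries, 6 and 0 in the C3 libraries and 3 and 3 in the OSKM libraries.

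None of the 3 H3K9me3 regions was called by limma in C2 against OSKM (0 at an unadjusted p under 0.05; edgeR 0), where 3.35% of 51633 regions were called. None was called in C3 against OSKM either (1 at an unadjusted p under 0.05; edgeR 0), where 9.04% were called. C2 against C3 gave 0 as well (0 at an unadjusted p under 0.05), where 0.136% were called. The Hoxd13/Hoxd12 region had 34.4 and 9.76 normalized reads in C2 and 49.4 and 33.8 in OSKM, where the libraries overlapped (-1.10, SE 0.58, limma adjusted p = 0.361). It had 28.4 and 13.7 in C3 and 55.1 and 37.0 in OSKM, without overlap (-1.15, SE 0.50, limma adjusted p = 0.186). It passed the threshold without C2 replicate 1 (-1.96, limma adjusted p = 0.00495) and without C3 replicate 1 (-1.65, 0.0202). Hoxd3, the strongest of the 3 by reads, had 91.7 and 83.6 in C2 and 56.2 and 99.1 in OSKM, and 88.8 and 48.6 in C3 and 62.7 and 109 in OSKM. Its libraries overlapped in both comparisons, as did those of Hoxc9, with 18.3 and 44.6 in C2 and 21.3 and 36.0 in OSKM.

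The HA tag gave no peak at a Hox gene. Of 12376 and 44939 HA peaks in the C2 libraries and 10666 and 22632 in the Empty libraries, 0 lay within 2500 bp of a Hox gene. The 4 chromosomes held 3.22 to 5.36 peaks per Mb in C2 replicate 1 and 11.1 to 17.6 in C2 replicate 2. In Empty they held 2.51 to 4.34 and 5.64 to 9.53. The window around the Hox genes covers 401614 bp, so few peaks would fall in it at these densities. The counts of 0 therefore do not show an absence of binding. With 3 peaks taken as the limit of a count of 0, shares of up to 0.0242% and 0.00668% of peaks in C2 and 0.0281% and 0.0133% in Empty are allowed. The HA libraries kept 1629753 to 3896935 tags, with a redundant share of 0.92 to 0.94, so weak binding was not detectable at this depth. In C2 replicate 2, a peak lay inside the span of the Hoxb cluster but beyond 2500 bp of its genes. Otherwise the nearest HA peak was 1945 kb from the Hoxb span in C2 replicate 1 and 1566 to 1570.5 kb in Empty, 43.9 to 841 kb from the Hoxa span in C2 and 43.8 to 43.9 kb in Empty, 319 kb from Hoxc in both C2 libraries and 321 to 378 kb in Empty, and 138 to 229 kb from Hoxd in C2 and 138 to 226 kb in Empty. Peaks of the Empty cells lay as near as those of C2 at Hoxa and Hoxd.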

How the data were processed

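Of 22 mouse libraries, 12 histone and 4 HA libraries had peak files and 6 were inputs. The submitters' processing notes name the build mm10 and the tools Bowtie2 2.2.5, DiffBind 1.16.2, SAMtools 1.3 and CASAVA 1.8.2. Peaks were called by the authors with MACS 2.1.0.20150731 (histone marks) or 2.1.1.20160309 (HA), per library against 1 input at a q-value of 0.01 with duplicate tags dropped, per the file headers. The deposited peak files give the pileup signal, −log10 p and q, and the fold enrichment ratio over the local background. The deposited DiffBind tables (6, each normalized separately) give normalized reads per region as a signal, log2 concentrations and log2 fold changes, p-values and FDR. Whether control reads were subtracted is not given in the sources used here.

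In each table, normalized reads were multiples of 1 value per library (100% of values whole within 0.001), so the read totals behind the regions could be recovered: 7033486 to 17649231 per H3K27ac library and 3412599 to 8548902 per H3K9me3 library. Regions were tested on log2(normalized reads + 1) with limma 3.58.1 (R 4.3.3), with a variance trend and Benjamini-Hochberg adjustment, after the 25% of regions with the lowest mean were left out. Fold changes on this scale understate those of weak regions. An exact permutation test of 2 against 2 libraries cannot go below p = 0.333, so values per library are given without one. Alternatives were no filter, a pseudocount of 8, median-centred and quantile-normalized libraries, a replicate block, each library left out, the authors' FDR, and edgeR 4.0.16 and TMM scaling on recovered reads. The fits were tested on simulated data. Peaks and summaries used Python 3.11.15, pandas 2.3.3 and NumPy 2.4.6, and figures matplotlib 3.10.9.

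Genes came from the RefSeq annotation of GRCm38.p6, and a region or peak was assigned to every gene within 2500 bp. Described singly were Hox genes with a called region (by rule at their strongest region; at Hoxb9 also at the called one) and the gene with the highest mean H3K27ac in each cluster; other genes were counted in lists, and 1 called region enters counts only and is not reported here. The Hox genes, lists and tests were chosen with earlier results of these data known. The tables also held 24 columns of peak calls per sample, which were not used.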

Additional observations from a re-analysis of the deposited data

Results flagged for a closer look

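At the Hoxc13/Hoxc12 region C2 and C3 lay on opposite sides of OSKM, but the C3 difference was not called. Both C2 libraries lay below both OSKM libraries (327 and 155 normalized reads in C2, 698 and 633 in OSKM). Both C3 libraries lay above them (838 and 891 in C3, 758 and 688 in OSKM), by 0.26 (SE 0.22, limma adjusted p = 0.431). With median-centred libraries the C3 difference was 0.09 (limma adjusted p = 0.812). A rise in C3 over OSKM was therefore not shown. Separation alone is common: 30.2% of all regions had both C2 libraries below both OSKM libraries. In the direct comparison the C2 minus C3 difference was -1.78 (log2, SE 0.36), with an adjusted p of 0.0977 by limma, 0.0482 by edgeR and 0.0419 by limma after TMM scaling. Over its alternatives the limma adjusted p ran between 6.29e-23 with a replicate block and 0.447 without C2 replicate 2. The region was singled out because the lines lay on opposite sides of OSKM in every library, and both comparisons use the same OSKM libraries. Its borders were those of peaks of C3 replicate 1, and this choice of region favours higher values in C3 than in C2 and OSKM.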

How the results depend on the processing

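Over all regions of H3K27ac in C2 against OSKM limma called 10670 of 101285. With no filter it called 14115 of 135566, with median-centred libraries 17306, with quantile normalization 3404 and with a replicate block 17092. In C3 against OSKM the calls were 22363 of 101600, and 24892 with median-centred libraries. The count of called Hox regions also depended on the settings. For H3K27ac in C2 against OSKM it was 2, and became 5 with no filter and 6 with median-centred libraries. It was 0 with quantile normalization, 7 with a replicate block and 5 by the FDR of the authors' deposited table. It also depended on which library was left out. For C3 against OSKM it was 3, and became 6 with median-centred libraries, 7 in the authors' deposited table and 3 to 4 with one library left out. Those 3 to 4 were not always the same regions: without OSKM replicate 2 they were a Hoxb9 region lower and a Hoxb3/Hoxb4 region (3.42) and a Hoxc6 region (2.95) higher in C3, none of them among the 3 called with all libraries, and 1 was higher without OSKM replicate 1 and 1 without C3 replicate 1. For C2 against C3 it was 0, and became 1 with no filter, where 2723 of 135566 regions were called. It was 1 with TMM scaling, 1 with edgeR and 3 with a replicate block, where 149, 271 and 13569 of 101581 regions were called. It also depended on which library was left out. In the authors' deposited table it was 1, there a region of Hoxa3 that was higher in C2 (log2 3.87, FDR 0.0404) and was named after its value was seen. For H3K9me3 in C2 and in C3 against OSKM it was 0, and 0 to 1 with one library left out. The other alternatives run kept the counts within 1.5 times, and the cause of the changes was not tested. Median centring moved the median of all regions in C2 against OSKM to -0.14 and the calls to 6195 higher and 11111 lower, against 5268 higher and 5402 lower by limma with the deposited scaling and 12445 higher and 5502 lower by the FDR of the authors' deposited table; quantile normalization gave 2123 higher and 1281 lower. Of 44 alternatives for the 4 differences at named Hox regions, 36 kept direction and side of the threshold, 8 were no longer past it and 0 changed direction. Over all regions edgeR on recovered reads called 14657 in C2 against OSKM, 271 in C2 against C3, and 1279 and 4847 for H3K9me3 in C2 and in C3 against OSKM. edgeR and TMM scaling were not run for H3K27ac in C3 against OSKM and H3K9me3 in C2 against C3. Libraries with the same replicate number were not known to share a source: their deviations correlated between -0.05 and 0.35, over 2 numbers only, so the block counts above are no evidence on pairing. With a −log10 q of at least 10, H3K27ac peaks at Hox genes numbered 11 and 1 in C2, 16 and 12 in C3 and 12 and 14 in OSKM.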
